A study of Mus musculus with 11 samples.

Results

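The collagen chain genes encode the polypeptides that wind, in groups of 3, into the collagen triple helices. Members were the genes whose symbol has the form of a collagen chain (Col, a type number, the letter a and a chain number) and is the only symbol annotated to a probe set of the array. Where a gene had several probe sets, the one with the highest mean log2 signal over all 11 arrays stood for it. This gave 42 genes out of 18193 genes with a probe set of their own. They fell into 11 fibrillar chains, 8 chains of basement membrane (the type IV chains with Col15a1 and Col18a1) and 23 others. The 42 genes had 82 probe sets between them, and 15 genes had 1 probe set only.

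Pools of mouse hearts taken at embryonic day 9.5 had been profiled on 11 arrays. Control hearts (n = 3) were Gata4 flox/+; Nkx2-5 +/+ and carried no Cre. Double heterozygous hearts (n = 3) were Gata4 flox/+; Nkx2-5 cre/+, and hearts labelled as the Gata4 conditional knockout (CKO, n = 5) were Gata4 flox/flox; Nkx2-5 cre/+. All 3 groups thus carried at least 1 floxed allele of Gata4, a zinc finger transcription factor of the heart. Both Cre groups carried 1 Nkx2-5 allele with Cre in place, so Cre came from the cells that use Nkx2-5, and the design text counts this allele as the loss of 1 Nkx2-5 copy. The labels do not tell how many hearts a pool held or whether replicates came from separate litters, so the p-values reflect only how far these samples spread, and that spread could be technical. Mean Gata4 signal was not lower in the CKO-labelled arrays. It was higher by 0.45 in the brighter probe set (SE 0.097, adjusted p = 0.0321) and by 0.08 in the other (SE 0.38, adjusted p = 0.958). In the dimmer probe set 1 array, CKO 2, read 6.42. Control arrays read 7.98 to 8.15 there and the other CKO-labelled arrays 8.26 to 8.81. No source used here places these probe sets inside or outside the floxed segment, so they do not check the labels, and the group is written as CKO-labelled.

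Fibrillar collagens (types I, II, III, V and XI, with XXIV and XXVII) pack into the striped fibrils of mesenchyme, cartilage and valves. Type IV collagen forms the meshwork of basement membranes, in which collagens XV and XVIII also lie. The remaining types include the beaded filaments of collagen VI, the short-chain network of collagen VIII, fibril-associated chains such as collagen IX, and chains anchored in the plasma membrane such as collagen XIII. Chains are hydroxylated on proline and lysine in the endoplasmic reticulum, trimerise with the help of chaperones, are trimmed outside the cell and then crosslinked. In the heart tube at this stage a basement membrane lies beneath endocardium and myocardium, and the cardiac jelly between them is being invaded by cushion mesenchyme, the precursor of the valves.

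Signals are given as normalised log2(value + 16), on which a deposited intensity of 0 would read 4 and a difference of 1 is a doubling. The offset of 16 makes fold changes of dim genes smaller than they would be without it. A gene was called when limma's adjusted p was under 0.05, with the Benjamini-Hochberg adjustment over all 45037 probe sets tested. The mean deposited intensity was 166.4 to 175.6 in 10 of the 11 arrays and 117.2 in CKO 3. The difference between the 3' and 5' actin control probe sets was 1.0 (log2) in CKO 2 and 0.29 to 0.45 in the other 10 arrays. These 2 arrays also had the lowest mean correlation with their own group (0.967 in CKO 2 and 0.965 in CKO 3, 0.977 to 0.988 elsewhere), so counts are given with and without them. The 9 cardiomyocyte genes examined, among them Myl7 and Tnnt2, had mean log2 signals of 9.52 to 13.07, so the defining genes of the labelled tissue were present. Array brightness depends on the probe set, so signals put no order on the genes. The mean over all arrays reached 6 in 19 of the 42 collagen genes and lay under 5 in 11, close to the level of a deposited 0.

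Between CKO-labelled and control hearts 7 of the 42 collagen genes were called (16.7%), against 2.09% of all genes tested. Col5a1, Col6a1, Col6a2 and Col8a1 rose (1.25% of all genes were called higher), and Col2a1, Col13a1 and Col26a1 fell (0.841% of all genes were called lower). The 42 differences ran from -0.84 to 1.06 with a median of 0.00, and 21 means were higher and 21 lower, while the median over all genes was -0.02. These medians include 23 genes with a mean under 6. Among the 19 others the fibrillar median was 0.29 and that of the collagens outside the fibrillar and basement membrane classes 0.63. That filter took the mean over all arrays, CKO-labelled ones included, so it partly selects on the difference. Col8a1 passed it with a control mean of 5.57, and Col26a1 failed it with a control mean of 6.03. The basement membrane median was -0.01 to 0.06 under the alternatives other than single left-out arrays. The median size of the difference without its sign was 0.14 in the family and 0.14 over all genes. Values of control and CKO-labelled arrays did not overlap in 11 of 42 genes, 8 higher and 3 lower, against 12.3% of all genes. Without CKO 2 and CKO 3 the count was 9, with all 7 genes still among them. Without control 1 or control 3 it was 2, without control 2, double heterozygous 1 or CKO 5 it was 3, without double heterozygous 3 it was 4, and leaving out each array in turn gave 2 to 9. On the deposited scale, without quantile normalisation, Col2a1 was the 1 collagen gene still called.

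By class, 2 of 11 fibrillar genes were called (1 higher, 1 lower; median difference -0.04), 0 of 8 basement membrane genes (median 0.02) and 5 of 23 others (3 higher, 2 lower; median 0.00). Of all genes tested 2.09% were called. In the basement membrane class 3 of 8 genes had an unadjusted p under 0.05 by limma, and array weights brought 2 of them past the threshold. The median size of the difference without sign was 0.29 in the fibrillar, 0.18 in the basement membrane and 0.14 in the other genes. The classes held unequal shares of dim genes, with a mean under 6 in 4 of 11, 3 of 8 and 16 of 23 genes, so these medians put no order on the classes, and differences between classes were not tested. The plot of the differences by class shows the calls on both sides of 0 in the fibrillar and other classes. The differences of the 8 basement membrane genes ran from -0.39 to 0.3.

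**Figure D1:**
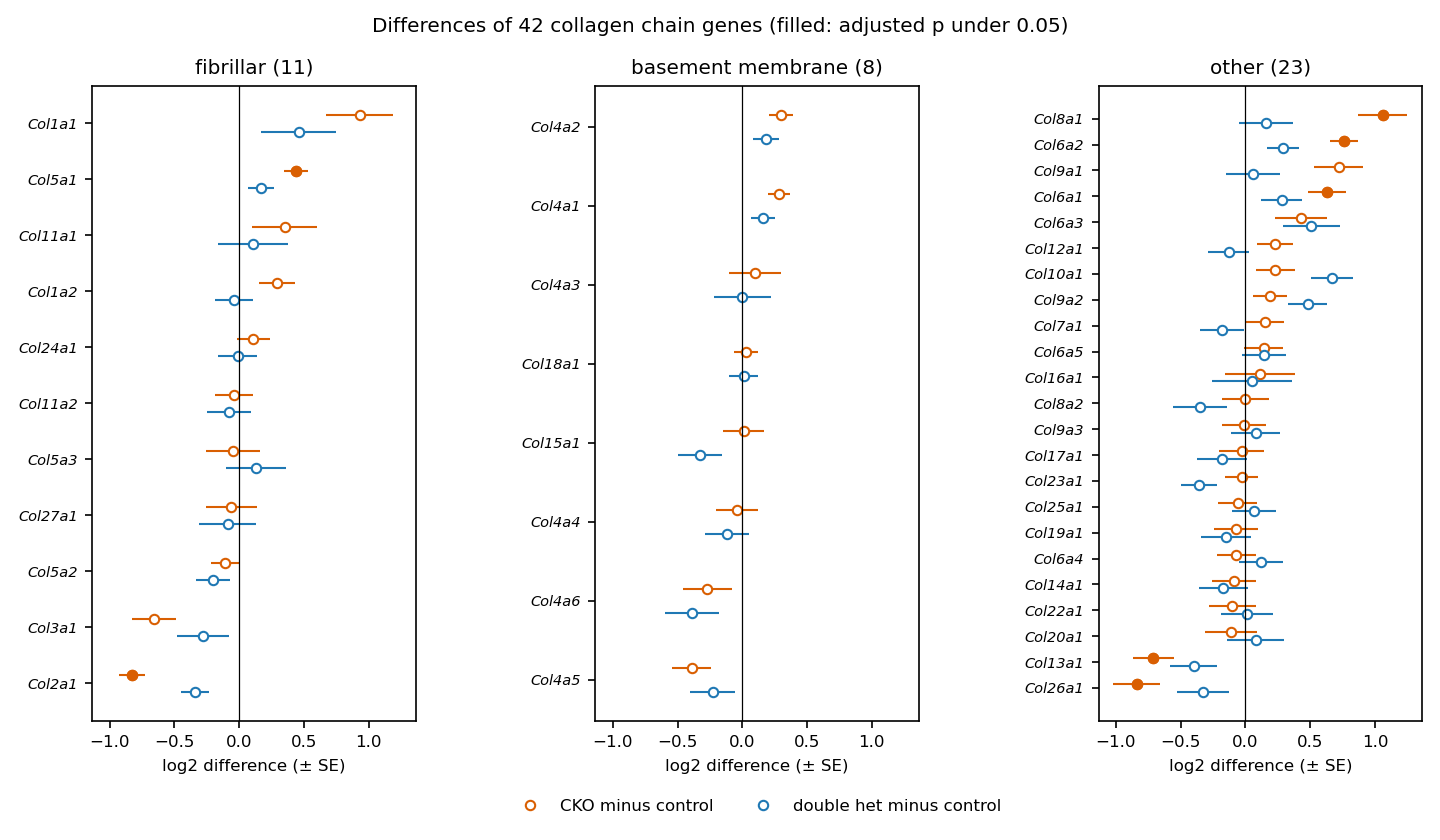
Log2 difference of the 42 collagen genes by class (points, with SE bars), CKO-labelled minus control and double heterozygous minus control; filled points were called at adjusted p under 0.05. The 7 filled points all belong to the CKO-labelled comparison, from -0.84 for Col26a1 to 1.06 for Col8a1, and no basement membrane gene is filled.

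In double heterozygous hearts, 0 of 42 collagen genes were called against control, and 0% of all genes were (530 genes had an unadjusted p under 0.05 by limma, 7 of them collagen genes; the adjusted p of each collagen gene was 1). The median difference was 0.01, with 22 means higher and 20 lower. Between CKO-labelled and double heterozygous hearts Col2a1 alone was called, as lower, against 0.550% of all genes called and 0.104% called lower, and 27 means were higher and 15 lower (median 0.08; -0.01 over all genes). These comparisons share arrays with the first one. The F-test over the 3 groups called Col2a1, Col6a2 and Col8a1, 7.14% of the family against 1.47% of all genes.

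Promoter sequence was given for 33 of the 42 members in the RefSeq table of build GRCm38.p6. The 250 bases before the annotated start are shown for the 4 members that rose, all of which have a window. Of the 3 that fell, the table had a window for Col13a1 only, which is not shown. Capitals mark matches, on either strand, to 4 short motifs searched for, which are GATAA (the core of a GATA factor site), the CCAAT box, the GC box written GGGCGG and the core of the hypoxia response element, ACGTG. No matches shared a base in these windows. The windows lie at chr10:76726045-76726294, minus strand (Col6a1), chr10:76623631-76623880, minus strand (Col6a2), chr16:57754738-57754987, minus strand (Col8a1) and chr2:27886175-27886424, plus strand (Col5a1).
Col6a1: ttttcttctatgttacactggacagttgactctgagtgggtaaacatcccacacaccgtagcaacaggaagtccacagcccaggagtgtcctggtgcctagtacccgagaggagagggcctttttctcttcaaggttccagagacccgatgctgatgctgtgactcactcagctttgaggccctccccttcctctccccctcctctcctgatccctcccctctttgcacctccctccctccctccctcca
Col6a2: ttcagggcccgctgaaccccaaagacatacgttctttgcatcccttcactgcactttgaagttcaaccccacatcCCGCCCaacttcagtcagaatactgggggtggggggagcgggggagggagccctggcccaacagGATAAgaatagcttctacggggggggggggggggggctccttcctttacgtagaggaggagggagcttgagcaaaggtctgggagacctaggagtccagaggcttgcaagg
Col8a1: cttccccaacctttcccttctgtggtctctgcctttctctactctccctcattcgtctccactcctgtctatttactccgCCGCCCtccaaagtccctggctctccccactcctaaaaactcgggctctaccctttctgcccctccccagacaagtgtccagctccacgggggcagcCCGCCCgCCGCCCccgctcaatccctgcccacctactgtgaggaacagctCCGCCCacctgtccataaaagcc
Col5a1: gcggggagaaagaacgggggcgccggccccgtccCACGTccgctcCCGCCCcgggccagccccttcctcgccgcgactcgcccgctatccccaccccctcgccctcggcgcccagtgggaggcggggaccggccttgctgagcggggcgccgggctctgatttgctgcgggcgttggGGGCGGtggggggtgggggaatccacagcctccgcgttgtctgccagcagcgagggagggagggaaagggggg

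The Col6a2 window held 1 GATAA and 1 GGGCGG, the Col8a1 window 4 GGGCGG, the Col5a1 window 2 GGGCGG and 1 ACGTG, and the Col6a1 window none of the 4. Among the 33 collagen windows, GATAA occurred in 4 (12.1%) against 23.0% of the 27025 gene windows of the table. CCAAT occurred in 12 (36.4%, against 34.5%), GGGCGG in 20 (60.6%, against 33.0%) and ACGTG in 4 (12.1%, against 16.5%). The median GC content was 59.2% in the collagen windows and 52.0% over all windows. No GATAA was found in the 7 basement membrane windows, of which 4 held a CCAAT. A match describes the letters in the window and is no evidence of binding.

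Among the fibrillar chains, Col2a1, the single chain of type II collagen, best known from cartilage and notochord, showed the smallest p of the family. Its log2 signal was 9.84, 9.92 and 10.1 in control, 9.71, 9.59 and 9.52 in double heterozygous and 9.14, 9.27, 9.17, 8.85 and 9.17 in CKO-labelled hearts. The 3 groups did not overlap, with the double heterozygous arrays between the others. The mean fell from 9.95 ± 0.14 (SD, n = 3) to 9.12 ± 0.16 (SD, n = 5) in CKO-labelled hearts, a difference of -0.83 (SE 0.099, adjusted p = 0.000514), or 0.561 times the control level. The call held under all 24 alternatives, with differences of -0.99 to -0.76. Against double heterozygous hearts (9.61 ± 0.096, SD, n = 3) it differed by -0.49 (SE 0.099), with an adjusted p that lay just under the threshold and rounds to 0.05. This second call was lost under 17 of 24 alternatives, including leaving out any one of 9 arrays (adjusted p of 0.0543 to 0.312; all but CKO 2 and CKO 3). Double heterozygous hearts differed from control by -0.34 (SE 0.11), which was not called.

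Col5a1, the chain found in all common forms of type V collagen, which starts fibrils and sets their width, moved the opposite way. Its log2 signal was 8.71, 8.46 and 8.67 in control, 8.76, 8.79 and 8.8 in double heterozygous and 9.03, 9.27, 8.99, 9.0 and 8.96 in CKO-labelled hearts. The 3 groups did not overlap, with double heterozygous values between the others. The mean rose from 8.61 ± 0.13 (SD, n = 3) to 9.05 ± 0.13 (SD, n = 5), by 0.44 (1.35-fold, SE 0.093, adjusted p = 0.0321). A second probe set gave 0.43 (adjusted p = 0.0746) and the remaining one 0.28 (adjusted p = 0.42). The call was lost without any one control array, any one double heterozygous array or CKO 5 (differences of 0.36 to 0.48, adjusted p of 0.0506 to 0.222), and with each array centred on its median (0.28, adjusted p = 0.396).

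The chains of type I and type III collagen, the main fibril formers of connective tissue, were not called. Col1a1 signal was 7.09, 6.81 and 6.85 in control, 7.17, 7.1 and 7.87 in double heterozygous and 7.46, 7.25, 7.74, 8.58 and 8.23 in CKO-labelled hearts. The CKO-labelled values all lay above control and were widely spread, and they overlapped double heterozygous values. The difference was 0.93 (1.91-fold, SE 0.26, adjusted p = 0.0953), and it was called without CKO 2 (1.08, adjusted p = 0.0283). A second Col1a1 probe set gave 0.55 (adjusted p = 0.206). In that probe set CKO 3, at 6.19, lay within the control range of 5.97 to 6.54. The partner chain Col1a2 ranged from 7.75 to 8.26 among controls and from 8.1 to 8.55 among CKO-labelled arrays, so the ranges overlapped. The Col1a2 difference was 0.29 (SE 0.14, adjusted p = 0.392).

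Col3a1 signal was 9.95, 9.76 and 10.13 in control, 9.51, 9.78 and 9.7 in double heterozygous and 9.05, 8.87, 9.37, 9.91 and 9.22 in CKO-labelled hearts. CKO 4, at 9.91, lay inside the control range and the other 4 CKO-labelled arrays lay below it. The difference was -0.66 (SE 0.17, adjusted p = 0.0821), and without CKO 4 it was -0.82 (adjusted p = 0.00412). Its neighbour on the chromosome Col5a2, a second chain of type V collagen, ranged from 8.82 to 8.96 among controls and from 8.44 to 8.96 among CKO-labelled arrays (difference -0.11, SE 0.11, adjusted p = 0.766). Col11a1, a type XI chain of cartilage fibrils, differed by 0.35 (SE 0.25, adjusted p = 0.604), with CKO-labelled values of 6.13 to 7.45 around control values of 6.5 to 6.56. The remaining fibrillar genes Col5a3, Col11a2, Col24a1 and Col27a1 were dim, with means of 4.18 to 5.34 and differences of -0.06 to 0.11.

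**Figure D2:**
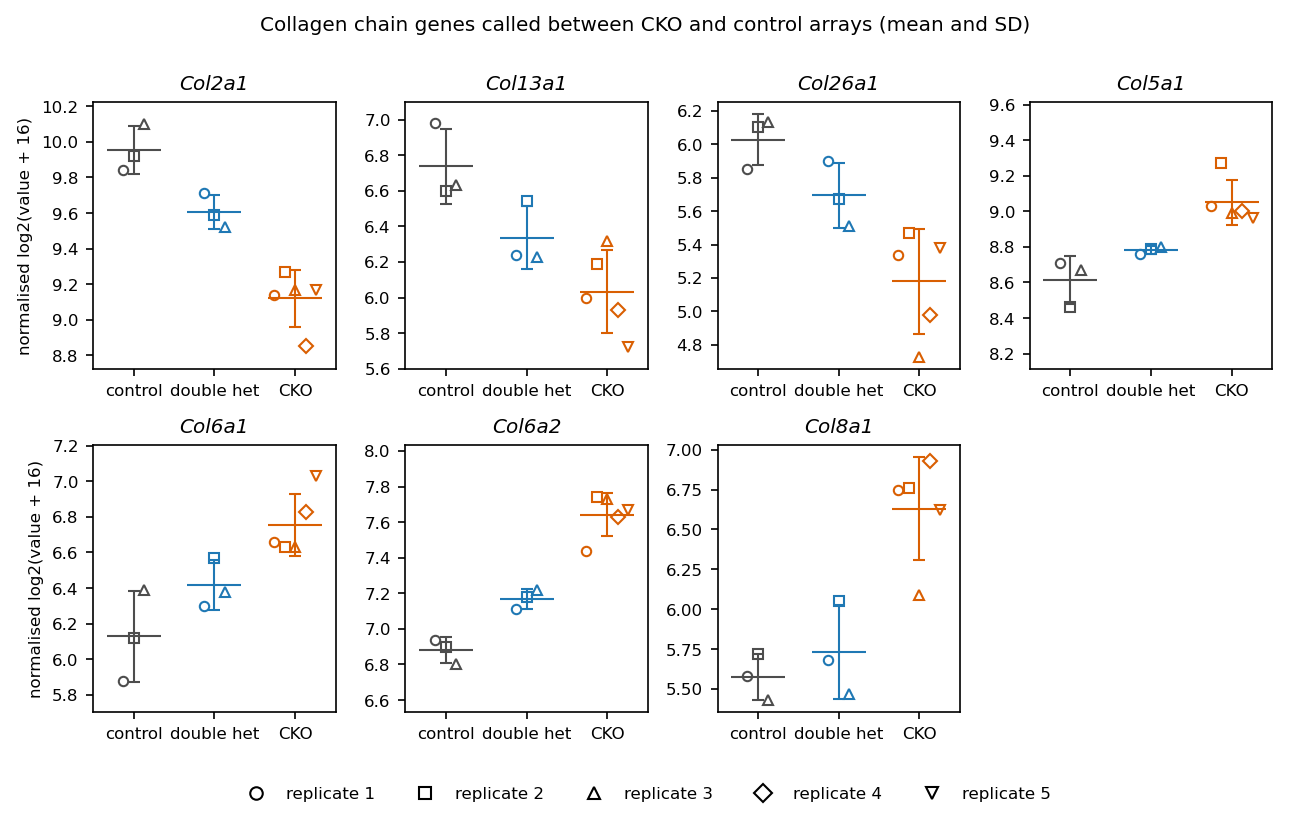
Normalised log2(value + 16) of the 7 called collagen genes by array (symbols are replicates, lines the group mean, bars the SD; n = 3, 3 and 5). In Col2a1, Col5a1 and Col6a2 the 3 groups do not overlap, while the double heterozygous values of Col8a1 (5.47 to 6.05) lie near control and below all CKO-labelled values (6.09 to 6.93).

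In the basement membrane class the type IV chains Col4a1 and Col4a2, which form the common type IV network and lie head to head on the chromosome, had similar small differences. Col4a1 signal was 11.1, 11.13 and 11.28 in control, 11.37, 11.28 and 11.33 in double heterozygous and 11.28, 11.66, 11.3, 11.41 and 11.57 in CKO-labelled hearts. Control 3 and CKO 1 both round to 11.28, so the groups did not overlap but met without a visible gap. The difference was 0.28 (1.21-fold, SE 0.085, adjusted p = 0.139). Col4a2 signal was 9.7, 9.94 and 9.83 in control, 10.11, 9.95 and 9.96 in double heterozygous and 9.99, 10.22, 9.95, 10.19 and 10.28 in CKO-labelled hearts. All Cre-carrying arrays lay above control in that gene. The difference was 0.30 (1.23-fold, SE 0.091, adjusted p = 0.13). Of the 24 alternatives, array weights alone called them (adjusted p = 0.0318 and 0.0292).

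Col4a5 and Col4a6, the X-linked pair of type IV chains, had lower means that were not called. Col4a5 signal was 9.19, 9.45 and 9.2 in control, 9.04, 9.15 and 8.97 in double heterozygous and 8.82, 8.44, 9.01, 9.38 and 8.79 in CKO-labelled hearts. CKO 4 again lay within the control range, and the difference was -0.39 (SE 0.15, adjusted p = 0.27; second probe set -0.42). Col4a6 differed by -0.27 (adjusted p = 0.614). Col18a1, whose cleaved end is endostatin, ranged from 10.06 to 10.22 among controls and from 10.0 to 10.42 among CKO-labelled arrays and differed by 0.03 (adjusted p = 0.924). Col4a3, Col4a4 and Col15a1 were dim (means of 4.44 to 5.49) and differed by -0.04 to 0.10.

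**Figure D3:**
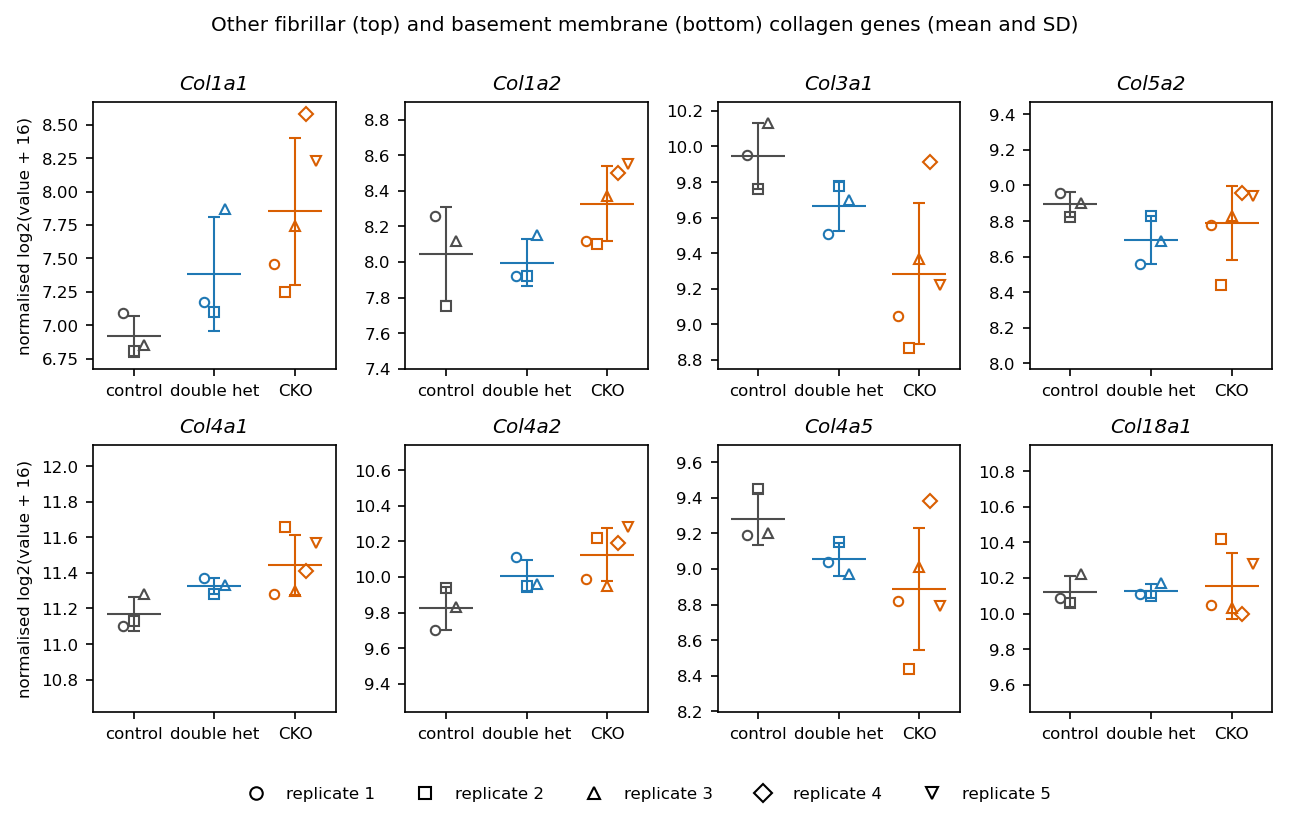
Normalised log2(value + 16) of 4 fibrillar genes (top) and 4 basement membrane genes (bottom) that were not called, by array (symbols are replicates, lines the group mean, bars the SD; n = 3, 3 and 5). CKO-labelled values of Col1a1 lie above control and spread from 7.25 to 8.58, and CKO 4 is the highest CKO-labelled array in Col3a1 (9.91) and Col4a5 (9.38).

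Among the other collagens, both neighbouring type VI genes rose. Collagen VI trimers of 3 different chains build beaded filaments around cells. Col6a2 signal was 6.94, 6.9 and 6.8 in control, 7.11, 7.18 and 7.22 in double heterozygous and 7.44, 7.74, 7.73, 7.63 and 7.67 in CKO-labelled hearts. The groups did not overlap, and double heterozygous values lay between the others. The mean rose from 6.88 ± 0.074 (SD, n = 3) to 7.64 ± 0.12 (SD, n = 5), by 0.76 (1.7-fold, SE 0.11, adjusted p = 0.00168), and a second probe set was also called (0.59, adjusted p = 0.0193). The call was lost on the deposited scale (0.63, adjusted p = 0.253). Against double heterozygous hearts the difference was 0.47 (SE 0.11, adjusted p = 0.0782).

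Col6a1, which has 1 probe set, had 5.88, 6.12 and 6.39 in control, 6.3, 6.57 and 6.38 in double heterozygous and 6.66, 6.63, 6.63, 6.83 and 7.03 in CKO-labelled hearts. CKO-labelled values lay above all others, and the other groups overlapped. The mean rose by 0.63 (1.54-fold, SE 0.15, adjusted p = 0.0479), a call lost without any of 8 arrays, which were the control and double heterozygous arrays, CKO 4 and CKO 5 (differences of 0.5 to 0.75, adjusted p of 0.0651 to 0.309). The partner chain Col6a3 differed by 0.43, which was not called (adjusted p = 0.355), and by 0.51 between double heterozygous and control. Col6a4 and Col6a5 differed by -0.07 and 0.14.

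Col8a1, a short chain of network-forming collagen in vessel walls and valves, had the largest difference of the family. Its log2 signal was 5.58, 5.72 and 5.43 in control, 5.68, 6.05 and 5.47 in double heterozygous and 6.75, 6.76, 6.09, 6.93 and 6.62 in CKO-labelled hearts. CKO-labelled values lay above all others, with CKO 3 the lowest. The mean rose from 5.57 ± 0.15 (SD, n = 3) to 6.63 ± 0.32 (SD, n = 5), by 1.06 (2.08-fold, SE 0.19, adjusted p = 0.0102). The call was lost without control 1 (1.05, adjusted p = 0.0726), without control 3 (0.98, adjusted p = 0.0844), on the deposited scale (1.02, adjusted p = 0.123) and without moderation. A second probe set gave 1.20 (adjusted p = 0.0042), and the remaining, dim one gave 0.16 (adjusted p = 0.746). Against double heterozygous hearts the difference was 0.90 (SE 0.19, adjusted p = 0.0571), and without CKO 3 it was called (1.05, adjusted p = 0.0051). In that comparison the second probe set was called with all arrays (1.01, SE 0.19, adjusted p = 0.0304). The dim probe set was not (0.16, adjusted p = 0.733). The partner chain of Col8a1, Col8a2, was dim and differed from control by 0.00.

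The membrane-anchored collagen gene Col13a1 and the dim Col26a1 fell. Col13a1 signal was 6.98, 6.6 and 6.63 in control, 6.24, 6.54 and 6.23 in double heterozygous and 6.0, 6.19, 6.32, 5.93 and 5.72 in CKO-labelled hearts. All Cre-carrying arrays lay below control. The mean fell from 6.74 ± 0.21 (SD, n = 3) to 6.03 ± 0.23 (SD, n = 5), a difference of -0.71 (0.613 times control, SE 0.16, adjusted p = 0.0383). That call was lost without any one of 8 arrays (the 3 controls, double heterozygous 1 and 3, and CKO 1, 4 and 5), with differences of -0.77 to -0.58 and adjusted p of 0.052 to 0.273.

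Col26a1 signal was 5.85, 6.1 and 6.13 in control, 5.9, 5.67 and 5.51 in double heterozygous and 5.34, 5.47, 4.73, 4.98 and 5.38 in CKO-labelled hearts. CKO-labelled values lay below all others. The difference from control was -0.84 (0.557 times control, SE 0.18, adjusted p = 0.0324), while its second probe set gave -0.15 (adjusted p = 0.85). The call was lost without any one of 6 arrays (the 3 controls, double heterozygous 1, CKO 4 and CKO 5; differences of -0.93 to -0.79, adjusted p of 0.0503 to 0.183).

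Of the fibril-associated type IX chains, which decorate type II fibrils, Col9a1 had 6.59, 6.67 and 7.08 in control, 6.63, 7.07 and 6.79 in double heterozygous and 7.55, 7.06, 7.21, 7.94 and 7.71 in CKO-labelled hearts. CKO 2, at 7.06, lay within the control range. The difference was 0.72 (SE 0.19, adjusted p = 0.0824), opposite in sign to that of Col2a1, and it was called without CKO 2 (0.82, adjusted p = 0.0244) or without CKO 3 (0.79, adjusted p = 0.049). A second Col9a1 probe set gave 0.26 (adjusted p = 0.656). Col9a2 differed by 0.19 (adjusted p = 0.589) and the dim Col9a3 by -0.01. The 10 genes of this class not described one by one, among them Col12a1, Col14a1, Col16a1 and Col23a1, were not called and differed from control by -0.11 to 0.23.

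Col9a2 and Col10a1 were the collagen genes with the smallest p between double heterozygous and control hearts in their class, though neither was called. Col9a2 had 6.12, 6.08 and 6.08 in control, 6.37, 6.54 and 6.81 in double heterozygous and 6.16 to 6.42 in CKO-labelled hearts, a double heterozygous minus control difference of 0.48 (SE 0.15, adjusted p = 1). Col10a1, the collagen of hypertrophic cartilage, had 4.02, 4.04 and 4.27 in control and 5.02, 4.72 and 4.59 in double heterozygous hearts, a difference of 0.67 (SE 0.16, adjusted p = 1) close to the level of a deposited 0. Double heterozygous and control values did not overlap in 11 of 42 genes, against 11.1% of all genes.

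**Figure D4:**
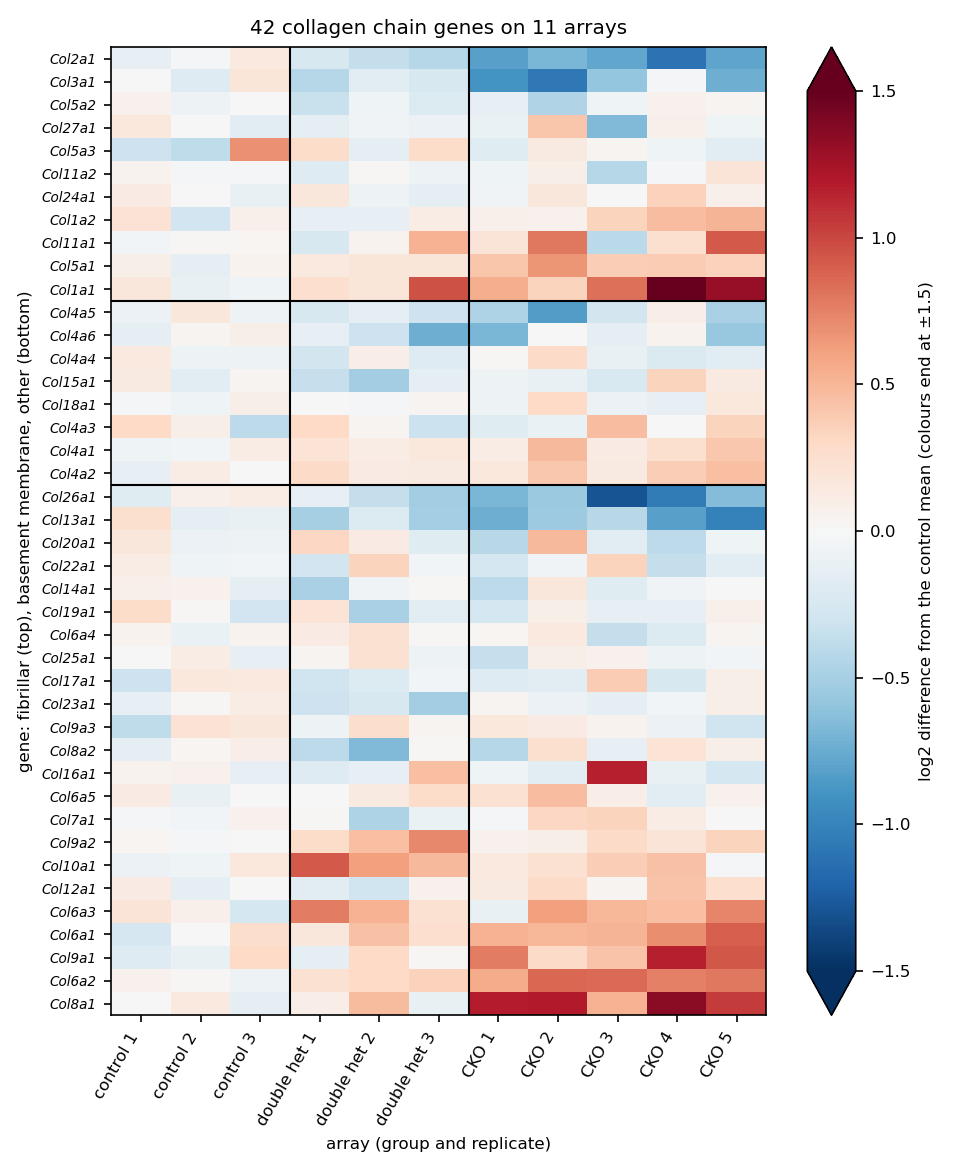
Difference of each array's normalised log2(value + 16) from the control mean, for the 42 collagen genes (rows, by class) and 11 arrays (columns, by group); the colour scale ends at -1.5 and 1.5. Col8a1 and Col6a2 are above control in all 5 CKO-labelled arrays and Col2a1 below it, while the single high value of Col16a1 belongs to CKO 3 (6.67, against 5.23 to 5.44 in the other CKO-labelled arrays).

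Of 28 genes for enzymes and chaperones that make collagen, 4 rose in CKO-labelled hearts and 0 fell (median 0.01; 2.09% of all genes were called), and all 4 hydroxylate collagen chains. Plod2, the lysyl hydroxylase of the telopeptides, had 9.17, 9.22 and 9.35 in control, 9.17, 9.21 and 9.42 in double heterozygous and 10.07, 10.47, 10.11, 10.52 and 10.54 in CKO-labelled hearts. Control and double heterozygous values overlapped, and the CKO-labelled values lay far above both. Plod2 rose by 1.10 (2.14-fold, SE 0.12, adjusted p = 0.000198) against control, a call kept in all 24 alternatives, and by 1.08 (adjusted p = 0.000944) against double heterozygous hearts.

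Of the 3 prolyl 4-hydroxylase alpha subunits, P4ha1 and P4ha2 rose, and P4ha3, near the level of a deposited 0, differed by -0.03 (adjusted p = 0.964). P4ha2 had 7.81, 7.81 and 7.66 in control, 7.66, 7.76 and 7.71 in double heterozygous and 8.47, 8.83, 8.46, 9.15 and 9.11 in CKO-labelled hearts. P4ha2 rose by 1.04 (2.06-fold, SE 0.15, adjusted p = 0.00228) against control and by 1.10 (adjusted p = 0.00453) against double heterozygous hearts; the latter call was lost without double heterozygous 1 (1.07, adjusted p = 0.0727). P4ha1 had 8.34 to 8.39 in control, 8.41 to 8.5 in double heterozygous and 8.89 to 9.37 in CKO-labelled hearts. It rose by 0.77 (1.7-fold, SE 0.11, adjusted p = 0.00276) against control and by 0.68 (adjusted p = 0.0147) against double heterozygous hearts. The second of these calls was lost without any one double heterozygous array (adjusted p of 0.0593 to 0.131), and with the mean of all probe sets the differences were 0.48 (adjusted p = 0.21) and 0.34 (adjusted p = 0.464). Median centring also ended the first (0.60, adjusted p = 0.0542). In both genes all CKO-labelled values lay above all others. P3h2, a prolyl 3-hydroxylase, rose by 0.65 (1.57-fold, SE 0.15, adjusted p = 0.0403), a call lost without any of 8 arrays, namely the control and double heterozygous arrays, CKO 4 and CKO 5 (adjusted p of 0.0616 to 0.202). On the deposited scale Plod2 kept its call against control (0.95, adjusted p = 0.0259) but not that against double heterozygous hearts (0.96, adjusted p = 0.0698), and P4ha2, P4ha1 and P3h2 lost theirs against control (adjusted p = 0.134, 0.312 and 0.537).

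The other makers of collagen were not called. P4hb, the beta subunit of prolyl 4-hydroxylase, differed by 0.08, the collagen chaperone Serpinh1 by -0.06, the proline isomerase Ppib by -0.05 and Crtap by 0.02. The lysyl oxidases Lox and Loxl1, which crosslink collagen outside cells, differed by 0.17 and -0.35. Members not called differed by -0.35 (Loxl1) to 0.30 (Plod1, another lysyl hydroxylase, adjusted p = 0.229).

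**Figure D5:**
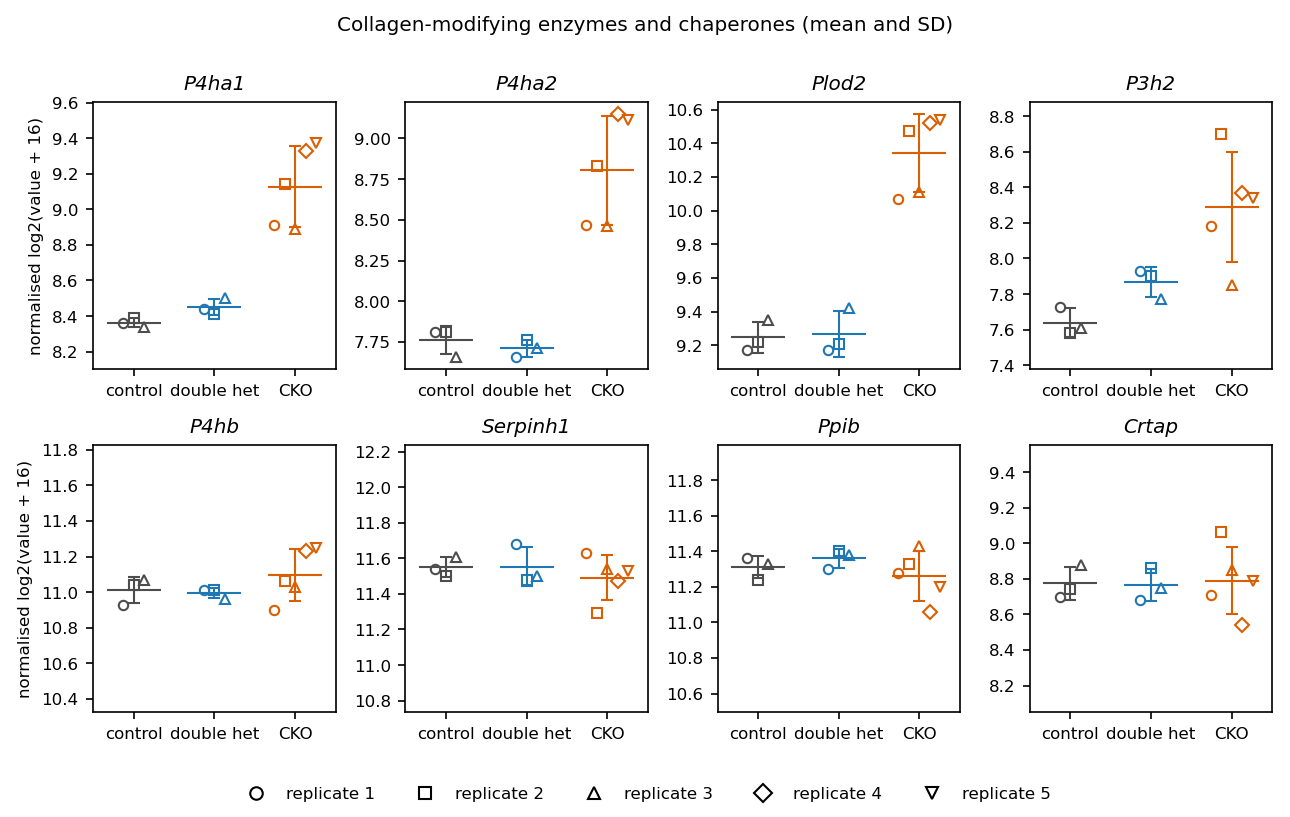
Normalised log2(value + 16) of 4 collagen hydroxylase genes that rose in CKO-labelled hearts (P4ha1, P4ha2, Plod2, P3h2) and 4 other genes of collagen synthesis that were not called, by array (symbols are replicates, lines the group mean, bars the SD; n = 3, 3 and 5). Plod2 lies at 9.17 to 9.42 in the 6 control and double heterozygous arrays and at 10.07 to 10.54 in the CKO-labelled arrays.

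Calls among receptors and partners of collagen were few, as they were over all genes tested (2.09% called, 1.25% higher). With 9, 16 and 11 genes these lists are too short to be set above or below that share. None of 9 collagen receptor genes was called by limma (median 0.04; 0 of 9, with Ddr1, a receptor kinase, at -0.22 and adjusted p = 0.296). Of 16 other basement membrane genes 1 was called, Sparc, a collagen-binding matricellular protein, which rose by 0.52 (1.44-fold, SE 0.11, adjusted p = 0.0261), while the median was 0.01. Sparc lost its call without control 1 (0.49, adjusted p = 0.166), control 2 (0.43, adjusted p = 0.184) or CKO 5 (0.53, adjusted p = 0.0585). Of 11 proteins of fibrils and their surroundings 1 was called, Vcan, the large proteoglycan of the cardiac jelly. Vcan rose by 0.43 (1.35-fold, SE 0.066, adjusted p = 0.00375). That call was lost under 4 of 24 alternatives. These were median centring (0.27, adjusted p = 0.233), the deposited scale, the mean of its probe sets and no intensity trend. The median of the 11 genes was -0.25, and fibronectin (Fn1) differed by -0.27 (adjusted p = 0.0515).

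Markers of several cell types moved with the same groups, and their part in the collagen values was not tested. Over all genes tested 1.25% were called higher and 0.841% lower. In bulk RNA, fewer cells of a type and less RNA per cell cannot be told apart. Of 9 genes listed for notochord and cartilage, the tissues best known for Col2a1, 7 were matched to a probe set. The notochord genes T and Noto were not matched, so the list covers notochord poorly. Hapln1, a link protein also made in the heart tube, fell (log2 difference -0.71, 0.611 times control, SE 0.086, adjusted p = 0.000566). The other 6 were not called, with a list median of -0.02 and 3 of 7 means higher. The summed signal of that list, on the linear scale, was 1051 to 1114 in control, 929 to 1052 in double heterozygous and 668 to 773 in CKO-labelled hearts. Without Hapln1, which made up most of it, the sum was 210 to 212, 199 to 235 and 193 to 233. The cartilage genes Acan and Matn1 were near the level of a deposited 0 (mean log2 signals of 4.71 and 4.36). Of 7 cushion mesenchyme genes 0 were called by limma, 6 had lower means (median -0.41), and their summed signal was 2345 to 2500 in control, 2066 to 2510 in double heterozygous and 1772 to 2367 in CKO-labelled hearts. Sox9, which is in both of these lists (-0.54, adjusted p = 0.116), was called with the mean of its probe sets (adjusted p = 0.0043). Twist1 (-0.64, adjusted p = 0.116) was called with the replicate block and without CKO 5.

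Of 7 proepicardial genes 2 were called, both lower, Tcf21 (-1.31, adjusted p = 0.0171) and Lrrn4 (-1.20, adjusted p = 0.00619), with 6 means lower. The share called lower over all genes was 0.841%. Tcf21 lost its call without any one control array (adjusted p of 0.0804 to 0.113) and Lrrn4 without control 2 or control 3 (0.0558 and 0.0601). The summed proepicardial signal was 1196 to 1294 in control, 584 to 939 in double heterozygous and 419 to 1032 in CKO-labelled hearts, so it was lower in both Cre-carrying groups. Of 8 endothelial and endocardial genes Kdr (0.68, adjusted p = 0.00678) and Cdh5 (0.63, adjusted p = 0.0189) rose and Tek fell (-0.65, adjusted p = 0.0015). The list median was 0.3, with 7 of 8 means higher, and 2.09% of all genes were called. The summed signal of the 8 genes was 2346 to 2434 in control, 2266 to 2348 in double heterozygous and 2627 to 3101 in CKO-labelled hearts. For the 5 genes not called it was 1091 to 1139, 1024 to 1163 and 1235 to 1418. Kdr lost its call without control 1 (0.63, adjusted p = 0.0739) or control 2 (0.65, adjusted p = 0.0665), and Cdh5 without any one control array or CKO 5 (adjusted p of 0.0539 to 0.131). With the mean of its probe sets Cdh5 differed by 0.36 (adjusted p = 0.286). Median centring ended both calls (Kdr 0.54, adjusted p = 0.0932; Cdh5 0.47, adjusted p = 0.15), as did the deposited scale (adjusted p = 0.375 and 0.468).

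Of 8 epithelial genes Krt8 (0.71, adjusted p = 0.00255) and Krt18 (0.85, adjusted p = 0.00082) rose, and the other 6 were not called (list median 0.10, 3 of 8 means lower). The share called higher over all genes was 1.25%. Both keratin calls were lost on the deposited scale (adjusted p = 0.262 and 0.14). Foxa1 and Foxa2 had deposited values of 0 on some arrays. The summed signal was 1324 to 1403 in control, 1460 to 1819 in double heterozygous and 2001 to 2604 in CKO-labelled hearts, and without the 2 keratins it was 92 to 107, 88 to 120 and 85 to 163. Of 9 cardiomyocyte genes Myh7 alone was called (0.27, adjusted p = 0.0154). That call was lost under 8 of 24 alternatives. Among them were the deposited scale, median centring and leaving out any one control array (adjusted p of 0.0788 to 0.112 for the left-out arrays). The summed signal of the 9 genes was 56831 to 57781, 56343 to 58460 and 54556 to 58857 in the 3 groups. No erythroid (7), neural (5) or yolk sac (5) gene was called by limma against control. Of the erythroid means 7 were higher and 0 lower (median 0.23). The neural list had 3 higher and 2 lower (median 0.03), and the yolk sac list 3 and 2 (median 0.05). The summed signals of these 3 lists were 19039 to 22275, 90 to 100 and 129 to 279 among controls. In CKO-labelled hearts they were 18732 to 24031, 73 to 118 and 114 to 402, and no gene of these lists had a deposited 0.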

How the data were processed

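RNA of 11 pooled heart samples had been extracted with TRIzol, and 50 ng was amplified and biotin-labelled (NuGen Ovation), per the labels' protocols. The authors' deposited values are linear intensities, 1 per probe set and array, made with PLIER per the submitters' processing notes; for background correction and scaling the method is not stated. Array medians of the deposited values spanned 0.465 (log2). From 45101 probe sets 64 controls were left out, 16 was added, log2 taken and arrays quantile-normalised. limma 3.58.1 (R 4.3.3; lmFit, eBayes with intensity trend) was fitted to all 3 groups (8 residual degrees of freedom, 15.07 after moderation), with p-values adjusted over 45037 probe sets. The design text names a one-way comparison of the 3 genotypes, which limma's F-test follows. Symbols came from the platform annotation (34945 probe sets with 1 symbol, 932 with several, 9160 with none). Groups came from the titles. Replicate numbers did not pair the samples (correlations of deviations of -0.06 to 0.15, 1 of 9 over 0.1). The number of arrays limits the precision.

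Members named were every called chain, the 4 with the highest mean and the 2 with the smallest p per comparison in each class. From other lists every called gene was named. In lists without a call the rule gave the 2 with the smallest p, of which only Ddr1, Twist1 and Sox9 are described. Others named were chosen after their values were seen. The members and lists were chosen with earlier results of these data known. Scripts were tested on simulated data. Alternatives covered the offset (1, 64), scale, centring, a filter at a mean of 6, probe set choice, moderation, array weights, a block and left-out arrays.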

Additional observations from a re-analysis of the deposited data

Results flagged for a closer look

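In Col5a1, the CKO-labelled array 2 read 9.27, against 8.96 to 9.03 in the other 4 arrays of its group, a gap of 0.761 of the group's range (0.71 is the critical value of Dixon's test for 5 samples). CKO 2 is the array with the larger actin 3' to 5' difference; without it Col5a1 stayed called. In Col16a1, a fibril-associated chain that was not called, CKO 3 read 6.67 against 5.23 to 5.44 in the other arrays of the group, a gap of 0.858 of the range. CKO 3 is the array with the lowest mean intensity. These were 2 of 67 genes examined in the CKO-labelled group, and chance alone marks about 1 in 20 groups.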

How the results depend on the processing

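In the 24 alternatives no named gene took a call in the other direction. The 19 named collagen genes gave 8 calls over the pairwise comparisons, and 77 of the 191 values of these under the alternatives were no longer called (40.3%). Of 1168 values of their 49 results that were not calls, 24 passed the threshold. The count of 7 called genes between CKO-labelled and control hearts was 1 on the deposited scale, 4 without the intensity trend, 12 with array weights, 2 without moderation and 3 with only these 2 groups fitted; leaving out single arrays gave 2 to 9. With median centring it was 6, split 2 higher and 4 lower, where quantile normalisation gave 4 and 3. The replicate numbers share only a number: with the replicate block the count was 4 (3 of the 7 kept), the count against double heterozygous hearts was 0, and the median of the other collagens was 0.11. The count of 1 against double heterozygous hearts was 0 with offset 1, offset 64, the deposited scale, median centring, no trend, no moderation or 2 groups alone, 3 with the filter at 6, 2 with the mean of probe sets, 4 with array weights, 3 without CKO 2 and CKO 3, and 0 to 2 with single arrays left out. No collagen gene was called between double heterozygous and control hearts by limma under any alternative (7 had an unadjusted p under 0.05). The F-test's 3 calls became 1 on the deposited scale, 5 with the mean of probe sets, 10 with array weights, 7 without CKO 2 and CKO 3, and 2 to 5 with single arrays left out.

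The fibrillar median of CKO-labelled minus control, -0.04, was 0.3 with offset 1, 0.29 with the filter, 0.06 with the mean of probe sets and -0.05 to 0.09 with single arrays left out; that of the other collagens, 0.00, was 0.12, 0.63, 0.11 and 0 to 0.1. Against double heterozygous hearts the filter gave 0.24 for fibrillar and 0.34 for other collagens, and the latter was -0.1 without CKO 2 and CKO 3. For double heterozygous minus control the fibrillar median, -0.04, was -0.14 with offset 1, 0 with array weights and -0.09 to -0.01 with single arrays left out; the basement membrane median, -0.06, was -0.17 to -0.03, and that of the other collagens, 0.06, was 0.16 with the filter. Medians of the basement membrane class against CKO-labelled hearts moved by less than the spread between replicates. The cause of these changes was not tested, beyond the filter leaving 19 of 42 genes. The filter used the mean over all arrays, so Col8a1 passed it and Col26a1 failed it partly through their CKO-labelled values. The median over all genes was -0.02, -0.07 on the deposited scale and -0.08 with centring. For the 23 genes with a mean under 6, signal near background limits what could be seen.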
